A study of Mus musculus with 6 samples.

Results

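The genes described here encode the machinery that sets the activity of mTORC1, the growth-promoting kinase complex built around mTOR, and the upstream and downstream kinases that connect it to insulin. They were the 38 rows of the count table whose names match a fixed list of subunits and regulators, out of 45527 named rows, and all 38 passed the filter on low counts. RNA was sequenced from satellite cells, the muscle stem cells that carry Pax7, sorted by flow cytometry 24 h after injury of mouse hindlimb muscle with 30 µl of cardiotoxin, a snake toxin that destroys fibres and starts regeneration. All mice carried Pax7creER, a Cre recombinase under the Pax7 promoter that tamoxifen activates, and R26R-YFP, a yellow fluorescent reporter that Cre switches on and that served for the sort. The 3 control libraries were of Pax7creER:Paxbp1flox/+:R26R-YFP mice, with a floxed allele beside a wild-type one, and the 3 Paxbp1-iKO libraries of Pax7creER:Paxbp1flox/flox:R26R-YFP mice, so the controls could also lose an allele and only cells in which Cre had acted were collected. The design speaks of 3 pairs of mice without saying which libraries form a pair or that each library is 1 animal, and the age of the mice is not stated. The p-values therefore measure only the spread between these libraries, which may be technical.

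mTORC1 sits on the lysosome and raises protein synthesis and cell size when growth factors and amino acids are both available. Growth factors act through insulin receptor substrates, PI3K, Pdpk1 and Akt, which release the small GTPase Rheb from its inhibitor, the TSC complex. Amino acids act through the Rag GTPases, which are held on the lysosome by Ragulator and bring mTORC1 to Rheb; GATOR1 shuts the Rags off and GATOR2 opposes GATOR1. In satellite cells mTORC1 is known for its part in leaving quiescence and in growth before the first division.

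Total counts per library ran from 23327359 to 28050748, and Pearson correlations of log2 CPM (counts scaled to a common TMM-adjusted library size) across tested genes lay between 0.933 and 0.957 inside a group and between 0.902 and 0.924 across groups, genes not being independent replicates. The targeted gene was higher, not lower, in the libraries labelled Paxbp1-iKO: Paxbp1 had 1583, 1917 and 1592 counts in the controls, against 2745, 3162 and 3125 in the others (log2 fold change 0.68 ± 0.13 SE, edgeR adjusted p = 0.00954). Counts cover the whole gene, which does not show whether the floxed part was removed, so the groups are named by their labels and every direction below rests on them. Satellite cell markers summed to between 10927 and 11375 CPM in the controls and between 13601 and 14359 CPM in those labelled iKO. Their 10 genes included 6 that rose (Pax7, Vcam1, Cdh15, Sdc4, Chodl and Cd82) and 3 that fell (Myf5, Itga7 and Des). Among all tested genes 8.15% rose and 12.3% fell. Sdc4, the most abundant of the list, went from 3911 ± 251 to 6087 ± 214 CPM (SD) and weighs heavily in the sum. Marker lists of fibro-adipogenic, endothelial, macrophage and neutrophil, myofibre, Schwann and erythroid cells had no gene past the test and overlapped between the groups in their summed level, and no listed marker was at 0 in all libraries. Of 5 smooth muscle and pericyte markers Acta2 alone fell, from 197 ± 55.0 to 41.9 ± 7.47 CPM (SD). Myh11, Rgs5, Cspg4 and Tagln overlapped between the groups, with Rgs5 at means of 51.3 and 51.6 CPM and Tagln at 35.9 and 35.0 CPM. That list summed to 256 to 349 CPM in the controls and 119 to 154 CPM in those labelled iKO, and Acta2 was its only gene without overlap. Any part of this list in the results below was not tested. In such sorted bulk samples, fewer cells of a kind and less RNA per cell cannot be told apart.

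Of the 38 members, 7 were higher in the iKO-labelled libraries and 3 lower, by edgeR's quasi-likelihood test at an adjusted p (Benjamini-Hochberg, 16252 genes tested) under 0.05. Among all tested genes 8.15% were called higher and 12.3% lower, 20.4% in all, against 18.4%, 7.89% and 26.3% of the members. The same shares of all tested genes are the background for the counts by complex below, which cover few genes each. Among all genes this made 1324 higher and 1991 lower, a split that became 1921 higher and 1440 lower when scaled by library totals alone, which shifts the median of all genes by 0.13 (log2). The members that rose were Deptor, Tsc1, Rragb, Flcn, Fnip1, Nprl2 and Irs1, and those that fell were Tsc2, Rheb and Akt2. Rragb was so low in the controls that it passed the low-count filter through the iKO-labelled libraries only, so its call is no support for that count. The groups did not overlap for 17 members (44.7%, against 39.8% of all tested genes), 12 of them higher (18.9% of all tested genes) and 5 lower (20.9%) in the libraries labelled iKO. Rragb is among these 12 and is no support for this count either. The median log2 fold change was 0.18 over the members and 0.02 over all tested genes.

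**Figure D1:**
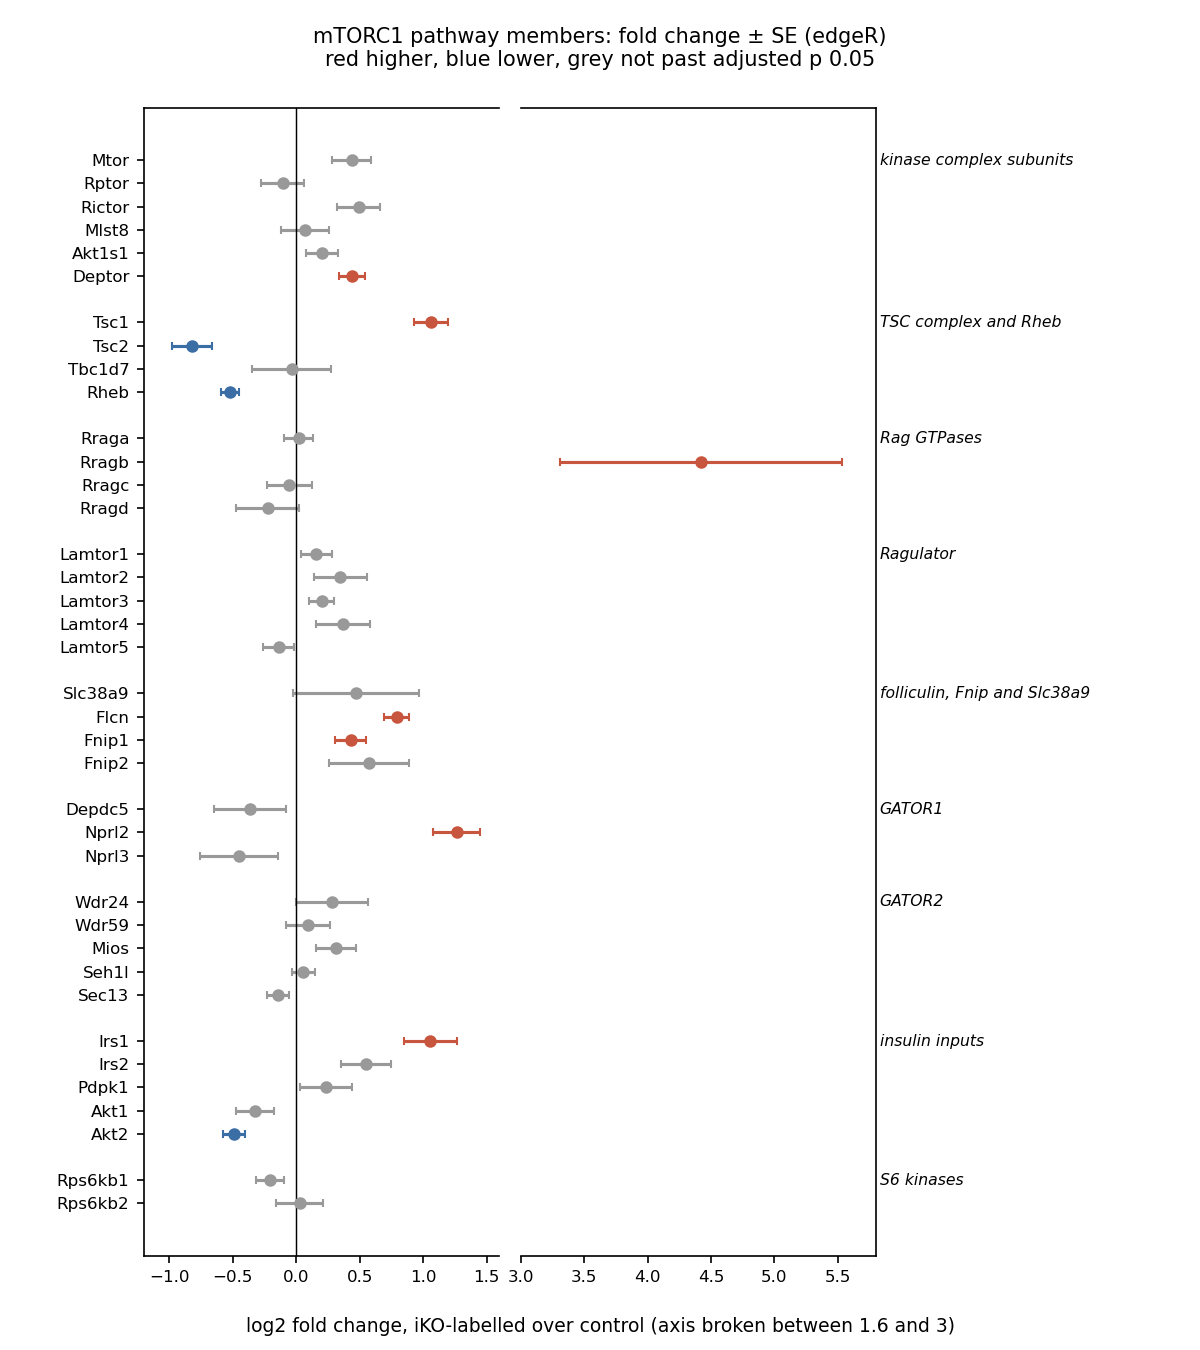
Log2 fold change of each of the 38 members, iKO-labelled over control (x axis, broken between 1.6 and 3), with SE bars from edgeR, grouped by complex (n = 3 libraries per group). Red points were called higher, blue points lower and grey points were not past an adjusted p of 0.05; Rragb lies apart at 4.42 with a wide error, and no Ragulator or GATOR2 gene is coloured.

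Of 4 genes for the TSC complex and Rheb, 1 rose and 2 fell (8.15% and 12.3% among all tested genes), which made 3 of the 10 changes. Tsc1 and Tsc2 moved in opposite directions. Tsc1 (chromosome 2, 28641228 to 28691167 in GRCm38, plus strand) encodes hamartin, which stabilises the complex. It stood at 20.1, 18.2 and 19.5 CPM in the controls and at 40.7, 37.5 and 42.5 CPM in those labelled iKO, so every iKO-labelled library had about the same raised level. The change was 1.06 ± 0.14 (adjusted p = 0.00153), a 2.09-fold rise.

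Tsc2 (chromosome 17, 24595816 to 24632630, minus strand) encodes tuberin, the subunit that switches Rheb off by its GTPase-activating domain. It stood at 56.4, 61.8 and 55.9 CPM in the controls and at 36.7, 35.6 and 26.2 CPM in those labelled iKO, lowest in iKO 3 (-0.82 ± 0.16, adjusted p = 0.00892). Tsc2 shares 7.2% of its exon length with Pkd1 on the opposite strand, and Smart-Seq2 does not keep strand. Pkd1 had 872 to 974 counts in the controls and 1305 to 1814 in those labelled iKO (0.55 ± 0.17, adjusted p = 0.0545), the direction opposite to that of Tsc2.

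The deposited FPKM (fragment counts corrected for gene length and for depth) allow both subunits to be compared within a library, where depth cancels. The annotation behind the gene lengths is not stated. A ratio depends on those lengths, but its change between libraries does not. Tsc1 was at 0.181, 0.15 and 0.178 of the Tsc2 level in the controls and at 0.564, 0.536 and 0.825 of it in the iKO-labelled libraries. The log2 ratio went from -2.56 ± 0.15 to -0.67 ± 0.34 (SD, n = 3), a difference of 1.9 with no overlap between the groups. An exact two-sided permutation test gave p = 0.1, the smallest that 3 against 3 libraries allow (0.2 adjusted over the 6 ratios compared). Both genes had already separated between the groups, in opposite directions, so the ratio had to separate too. It describes the size of the shift and is no further support.

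Rheb (chromosome 5, 24802823 to 24842624, minus strand), the GTPase that activates mTORC1 directly, had the highest FPKM of this group. It stood at 398, 377 and 360.0 CPM in the controls and at 249, 275 and 267 CPM in those labelled iKO, with narrow spread in both. The fall was -0.52 ± 0.074 (adjusted p = 0.00246). Tbc1d7, the small remaining subunit of the TSC complex, stood at 7.82, 8.31 and 8.54 CPM and at 9.81, 4.87 and 9.37 CPM, so that iKO 2 alone was low and the difference lay within the spread (-0.038 ± 0.31, adjusted p = 0.951; the sign turns under several scalings).

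**Figure D2:**
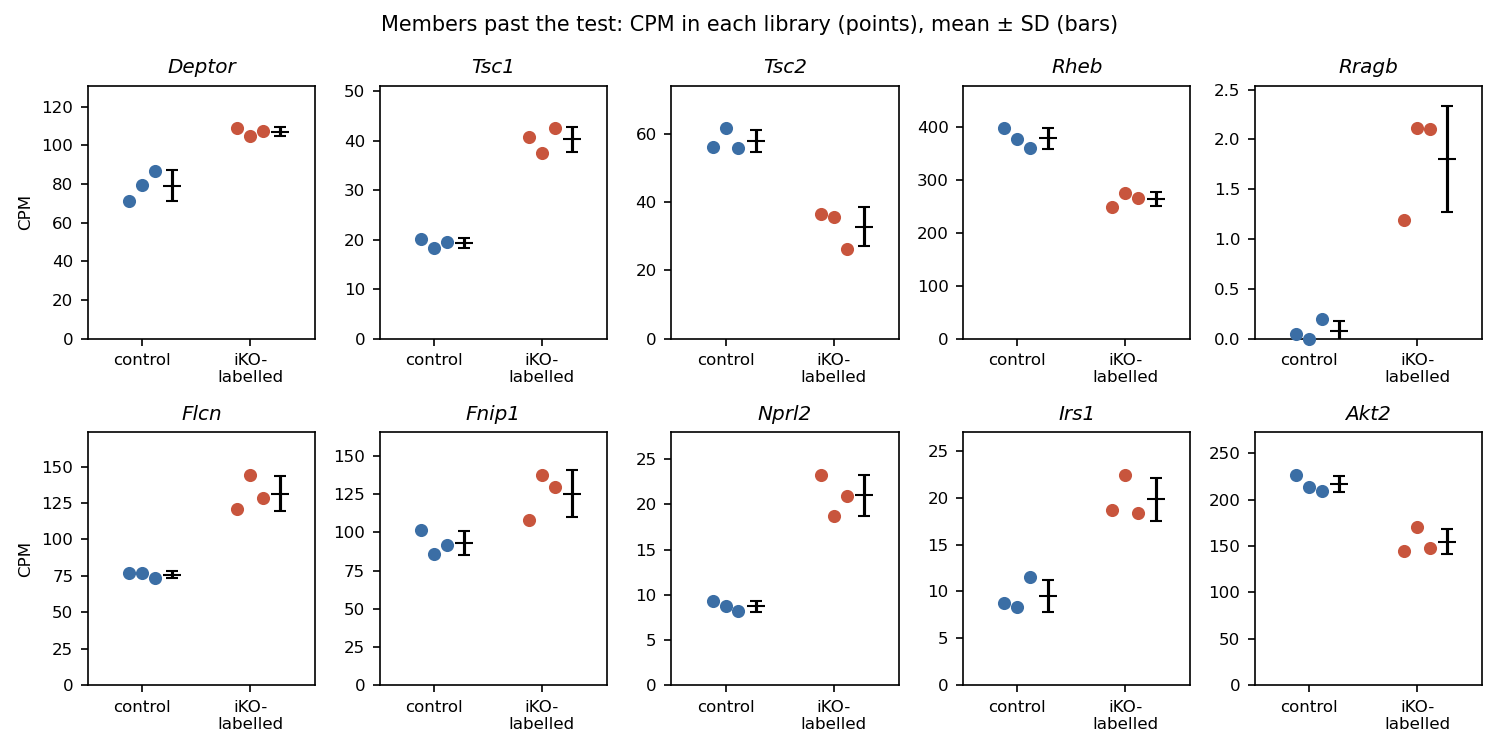
CPM (y axis, from 0, a scale of its own for each gene) of the 10 members past the test in each control (blue) and iKO-labelled (red) library, with mean ± SD as black bars (n = 3). The groups do not overlap for any of the 10, nor for 39.8% of all tested genes. The 10 were chosen by a test on these same values, so this is no further support. Tsc1 and Nprl2 more than double while Tsc2, Rheb and Akt2 lie lower in all 3 iKO-labelled libraries.

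GATOR1 is the complex that stimulates GTP hydrolysis by RagA and RagB when amino acids are short. Of its 3 genes, 1 was past the test (20.4% of all tested genes were). Nprl2 (chromosome 9, 107542226 to 107545706, plus strand), whose protein carries the catalytic residue of the complex, stood at 9.34, 8.70 and 8.16 CPM in the controls and at 23.3, 18.7 and 21.0 CPM in those labelled iKO. Its rise of 1.27 ± 0.19 (adjusted p = 0.0029), 2.40-fold, was the largest among the members with more than a few counts in the controls. Its annotated exons overlap those of no other gene.

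Its partners lay on the other side of 0, without passing the test. Nprl3, which pairs with Nprl2, stood at 17.3, 13.2 and 16.6 CPM in the controls and at 13.8, 6.61 and 14.0 CPM in those labelled iKO (-0.45 ± 0.31, adjusted p = 0.37). Depdc5, which docks GATOR1 on the Rags, stood at 11.04, 16.3 and 20.7 CPM and at 10.8, 10.6 and 15.9 CPM (-0.37 ± 0.28, adjusted p = 0.435), and for both genes the groups overlapped. Nprl3 shares 17.7% of its exon length with Mpg on the opposite strand, and strand was not kept. Mpg had 85 to 158 counts in the controls and 128 to 176 in those labelled iKO (0.25 ± 0.33, edgeR adjusted p = 0.665). Per length, Nprl2 exceeded Nprl3 by 2.04, 2.48 and 1.85 times in the controls and by 6.35, 10.6 and 5.64 times in the iKO-labelled libraries. The difference in the log2 ratio was 1.78 for Nprl3 and 1.6 for Depdc5, each without overlap between groups (exact permutation p = 0.1 for both, the smallest possible, 0.2 adjusted). Both ratios reuse the values that gave the call of Nprl2, so they are no separate support.

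GATOR2, which counteracts GATOR1, had 0 of 5 genes called by edgeR, 0 with an unadjusted p under 0.05 and 0 called by DESeq2 or limma-voom. Sec13 and Seh1l, which also serve in the nuclear pore and, for Sec13, in the coat of vesicles leaving the endoplasmic reticulum, were the most abundant members per length of all 38, at 98.3 ± 2.68 and 68.1 ± 5.61 FPKM (SD, n = 3) in the controls and 90.1 ± 6.74 and 71.6 ± 5.35 FPKM in the iKO-labelled libraries. The subunits that belong to GATOR2 alone were far lower, at 6.15 FPKM for Mios, 4.52 for Wdr24 and 3.31 for Wdr59 in the controls. Changes ran from -0.14 ± 0.087 for Sec13, whose 3 iKO-labelled libraries (159.6, 138.9 and 157.0 CPM) all lay below the controls (173.8, 167.4 and 161.5 CPM), to 0.31 ± 0.16 for Mios.

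Folliculin and its partners act on RagC and RagD so that mTORC1 reaches some of its substrates. Of 4 genes for these and for the transporter Slc38a9, 2 rose, Flcn and Fnip1 (8.15% of all tested genes rose). Flcn (chromosome 11, 59791408 to 59810016, minus strand) stood at 77.2, 77.1 and 73.3 CPM in the controls and at 121, 145 and 129 CPM in those labelled iKO (0.79 ± 0.099, adjusted p = 0.00139). Fnip1 (chromosome 11, 54438199 to 54518235, plus strand), a folliculin-interacting protein, stood at 101.8, 86.2 and 91.7 CPM and at 108.3, 138.0 and 129.9 CPM, iKO 1 lying close above the highest control. Its rise of 0.43 ± 0.12 (adjusted p = 0.039) was no longer called without iKO 2, iKO 3, control 2 or control 3 (at most adjusted p = 0.144).

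The other folliculin-interacting gene, Fnip2, had the larger estimate and the larger error. It stood at 15.7, 11.8 and 9.92 CPM in the controls and at 12.3, 16.98 and 26.5 CPM in those labelled iKO (0.57 ± 0.31, adjusted p = 0.256), so that iKO 3 stood out and the groups overlapped. Slc38a9, the lysosomal transporter that signals arginine to the Rags, was sparse, with 136, 43 and 160 counts in the controls and 147, 174 and 200 in those labelled iKO (0.47 ± 0.50, adjusted p = 0.578).

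Of 4 Rag GTPase genes, Rragb alone was called, and the controls hardly expressed it. Because it passed the low-count filter through the iKO-labelled libraries only, it had to differ, and its values are given as a description. Rragb (X chromosome, 153139981 to 153171943, plus strand) had 1, 0 and 5 counts in the control libraries, against 34, 62 and 52 in those labelled iKO. Its level was 0.0788 ± 0.1002 CPM in the controls and 1.80 ± 0.531 CPM in those labelled iKO (fitted log2 fold change 4.42 ± 1.11, which depends on the prior count). Pooled, 6 against 148 counts gave a ratio of 22.2 at equal depth, with an exact 95% interval of 9.96 to 61.5 that covers counting error only. The fitted value was 6.13 without control 3, which held 5 of the 6 control counts, and the call ended without control 1 or any of the iKO libraries (adjusted p up to 0.0922).

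Rraga, the single-exon paralog that does the same work, stood at 78.6, 89.9 and 95.6 CPM in the controls and at 81.7, 89.9 and 96.2 CPM in those labelled iKO (0.020 ± 0.11, adjusted p = 0.929, with a sign that turns without control 1 or iKO 3). It made up 99.9% to 100% of the summed FPKM of the pair in the controls and 98.3% to 99.0% in those labelled iKO, so Rragb remained a small part of the pair. The coding sequences of the paralogs are much alike, and how reads that match both were counted is not stated. Rragc (-0.054 ± 0.18, adjusted p = 0.874) and Rragd (-0.22 ± 0.25, adjusted p = 0.596), the partners in the Rag dimer, overlapped between the groups, and Rragc made up 67.4% ± 2.96 of their summed FPKM in the controls and 69.7% ± 2.14 in those labelled iKO.

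The start of Rragb is shown because this gene went from near 0 to a low level and because its promoter holds the hexamer CACGTG, the E-box read by Myc and by the lysosomal factors of the MiT/TFE family, in 3 copies. In the RefSeq promoter windows of GRCm38.p6, each reaching from upstream of a transcription start to just past it, CACGTG, which is its own reverse complement, occurred in 7.15% of 32851 windows and in 9 of 38 windows of 33 members with an entry (23.7%). Those members were Tbc1d7, Rheb, Rragb, Rragc, Lamtor1, Lamtor4, Fnip1, Irs1 and Irs2, of which 3 rose, 1 fell and 5 did not pass the test. Among all tested genes 8.15% rose and 12.3% fell. Rragb, counted among the 3, had to differ because of the filter. The CLEAR palindrome, a longer element that contains CACGTG, occurred in none of the member windows and in 0.326% of all windows, and GTAAACA, the core of the FoxO site, searched on both strands, in 1 member window (of Akt1) and 3.65% of all. The 32851 windows were not limited to tested genes or matched to the members in GC content, so these shares are not like for like. A match is a description of the letters in the window and not evidence of binding. The stretch of Rragb spans its RefSeq start (chrX:153139818-153139967, plus strand). The others span 17 bases to either side of the hexamer in the genes that were called and in Lamtor4, which holds 2 copies, each written 5′ to 3′ on the strand of the gene with the hexamer in capitals.
Rragb: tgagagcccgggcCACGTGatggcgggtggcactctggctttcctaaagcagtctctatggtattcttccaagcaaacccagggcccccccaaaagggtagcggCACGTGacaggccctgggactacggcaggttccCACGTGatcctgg
Fnip1 (chr11:54438087-54438126, plus strand): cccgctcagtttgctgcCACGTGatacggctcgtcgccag
Irs1 (chr1:82291532-82291571, minus strand): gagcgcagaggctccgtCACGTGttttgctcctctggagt
Rheb (chr5:24842435-24842474, minus strand): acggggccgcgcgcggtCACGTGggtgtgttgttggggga
Lamtor4 (chr5:138255345-138255400, plus strand): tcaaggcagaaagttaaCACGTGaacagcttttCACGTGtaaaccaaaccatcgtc
The hexamer begins 127, 36 and 3 bases before the start in Rragb, 75 in Fnip1, 115 in Irs1, 96 in Rheb, and 120 and 104 in Lamtor4. Of the genes shown, Rragb, Fnip1 and Irs1 rose, Rheb fell and Lamtor4 was not called. Any part of the hexamer in these changes was not tested.

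Ragulator, the pentamer that anchors the Rags to the lysosome, had 0 of 5 genes called by edgeR, 0 with an unadjusted p under 0.05 and 0 called by DESeq2 or limma-voom. Lamtor1, the subunit with the lipid anchor, stood at 47.9, 48.5 and 44.1 CPM in the controls and at 56.1, 47.2 and 53.3 CPM in those labelled iKO (0.16 ± 0.12, adjusted p = 0.438). Lamtor3 (0.20 ± 0.10, adjusted p = 0.21) and Lamtor4 (0.37 ± 0.21, adjusted p = 0.286) were higher in each iKO-labelled library than in any control, at 78.7 to 83.6 against 67.7 to 75.9 CPM and at 9.89 to 11.9 against 8.12 to 9.39 CPM. Lamtor2 (0.35 ± 0.21, adjusted p = 0.301) and Lamtor5 (-0.14 ± 0.12, adjusted p = 0.50) overlapped. Per length the subunits were far from equal, from 6.47 ± 0.432 FPKM for Lamtor4 to 67.5 ± 6.31 FPKM for Lamtor5 in the controls, with Lamtor1 at 33.5 ± 1.58, Lamtor3 at 16.7 ± 1.13 and Lamtor2 at 10.6 ± 1.65 FPKM between them, and this order was the same in the iKO-labelled means.

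**Figure D3:**
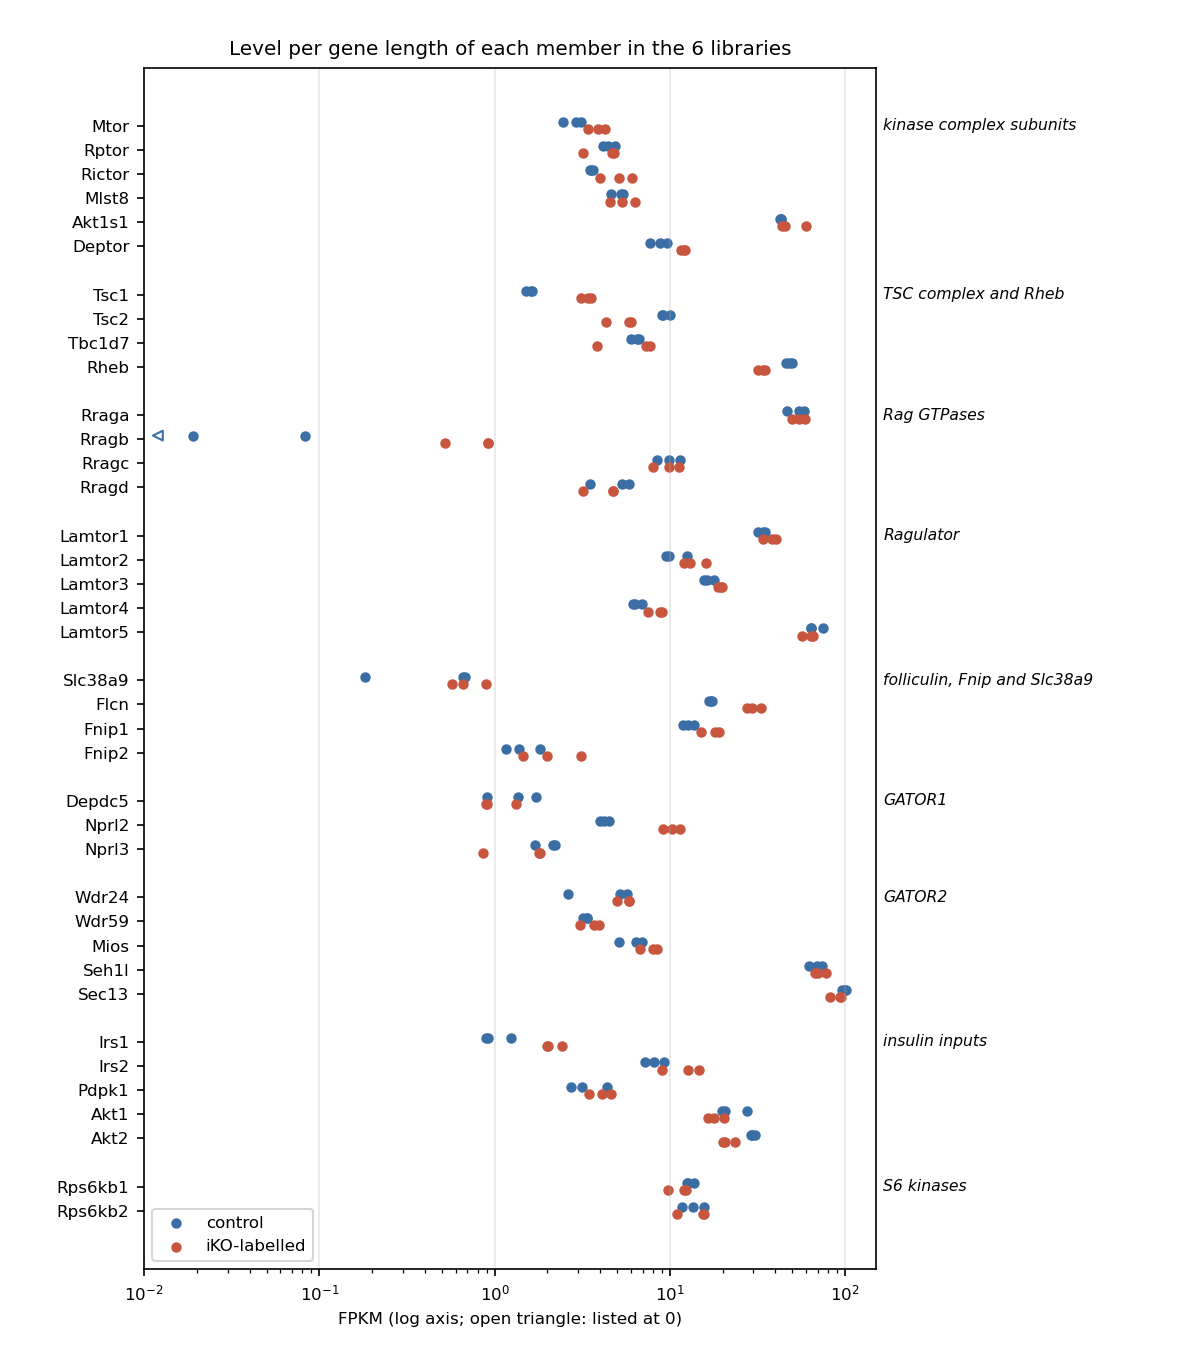
Deposited FPKM of each member (x axis, log scale) in the 3 control (blue) and 3 iKO-labelled (red) libraries, grouped by complex, with an open triangle where a library is listed at 0. Levels range from Rragb and Slc38a9 below 1 FPKM to Sec13 at 98.3 FPKM in the controls, and the S6 kinases lie close together.

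Of the 6 kinase complex genes, Deptor rose and no gene fell. Deptor (chromosome 15, 55112317 to 55259271, plus strand), which binds and inhibits mTOR in both complexes, stood at 71.0, 79.3 and 87.0 CPM in the controls and at 109, 105 and 108 CPM in those labelled iKO (0.44 ± 0.10, adjusted p = 0.0212). The call ended without control 1, control 2 or any of the iKO libraries, with adjusted p from 0.0562 to 0.0669 in these cases and a log2 fold change of at least 0.36. Mtor, the kinase itself, stood at 30.5, 25.3 and 31.8 CPM in the controls and at 43.8, 39.6 and 35.0 CPM in those labelled iKO. The groups did not overlap, but the difference missed the threshold (0.44 ± 0.15, adjusted p = 0.088) and passed it with DESeq2 (adjusted p = 0.0345).

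Rictor, the defining subunit of mTORC2, stood at 33.9, 33.9 and 34.7 CPM in the controls and at 37.8, 57.6 and 48.7 CPM in those labelled iKO, with iKO 1 close to the controls (0.49 ± 0.17, adjusted p = 0.0789). It was past the threshold with DESeq2 (adjusted p = 0.0241) and without iKO 1 (0.63, adjusted p = 0.0298). Rptor, the defining subunit of mTORC1, stood at 68.4, 61.0 and 57.0 CPM in the controls and at 65.5, 63.7 and 43.6 CPM in those labelled iKO (-0.11 ± 0.17, adjusted p = 0.725, positive without iKO 3 or when scaled by library totals). The ratio of Rictor to Rptor per length was 0.718 to 0.879 in the controls and 0.835 to 1.61 in those labelled iKO. These ranges overlap (exact permutation p = 0.2, 0.3 adjusted, where the smallest possible p is 0.1).

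The remaining subunits were Mlst8, shared by both complexes (0.072 ± 0.19, adjusted p = 0.839, negative without iKO 1), and Akt1s1, which encodes the inhibitory substrate PRAS40. Akt1s1 stood at 140.8, 140.7 and 139.5 CPM in the controls and at 195, 147 and 142.0 CPM in those labelled iKO, so that the difference of 0.20 ± 0.13 (adjusted p = 0.33) rested mostly on iKO 1 and was 0.039 without it. Per length Akt1s1 (42.8 ± 0.344 FPKM) exceeded every other subunit of the kinase complexes in the controls, and Mtor was the lowest (2.82 ± 0.330 FPKM).

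The insulin inputs included 1 gene that rose and 1 that fell. Irs1 (chromosome 1, 82233101 to 82291416, minus strand), an adaptor that carries the signal from the insulin and IGF1 receptors to PI3K, stood at 8.72, 8.35 and 11.5 CPM in the controls and at 18.7, 22.5 and 18.4 CPM in those labelled iKO (1.06 ± 0.21, adjusted p = 0.0104), a 2.08-fold rise. Gm9747, which covers 30.9% of its exon length on the opposite strand, had 0 counts in all libraries. Irs2, the more abundant adaptor per length, stood at 38.5, 33.2 and 29.7 CPM and at 51.5, 36.9 and 60.1 CPM, iKO 2 falling among the controls (0.55 ± 0.20, adjusted p = 0.0946). It passed the threshold with DESeq2 (adjusted p = 0.0265) and without iKO 2 (0.72, adjusted p = 0.0407). The ratio of Irs1 to Irs2 overlapped between the groups (exact permutation p = 0.3, 0.36 adjusted). With 3 against 3 libraries this p cannot fall below 0.1, so the test cannot decide whether the adaptors responded differently.

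Akt2 (chromosome 7, 27591552 to 27640826, plus strand), the Akt kinase best known for insulin-stimulated glucose uptake, stood at 227, 214 and 210 CPM in the controls and at 145, 170.3 and 148 CPM in those labelled iKO (-0.49 ± 0.089, adjusted p = 0.00722). Akt1 stood at 84.1, 85.9 and 114.7 CPM in the controls and at 84.6, 68.1 and 74.5 CPM in those labelled iKO, with control 3 above the rest (-0.33 ± 0.15, adjusted p = 0.178). The share of Akt1 in the summed FPKM of both was 43.0% ± 5.05 in the controls and 46.0% ± 4.69 in those labelled iKO. These differ by less than their SD (exact permutation p = 0.6 for the ratio, 0.6 adjusted, where the smallest possible p is 0.1). Pdpk1, the kinase that phosphorylates the activation loop of Akt and of the S6 kinases, overlapped between the groups (0.23 ± 0.21, adjusted p = 0.50).

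The S6 kinases, substrates of mTORC1 that promote translation, had 0 of 2 genes called by edgeR, DESeq2 or limma-voom and 0 with an unadjusted p under 0.05. Rps6kb1 stood at 112.7, 121 and 112.5 CPM in the controls and at 85.6, 106 and 108 CPM in those labelled iKO (-0.21 ± 0.11, adjusted p = 0.252), all of these below the controls. Rps6kb2 overlapped (0.026 ± 0.18, adjusted p = 0.943, negative without control 1, iKO 1 or iKO 2). The genes had like levels per length in the controls, 13.0 ± 0.607 and 13.7 ± 1.92 FPKM.

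**Figure D4:**
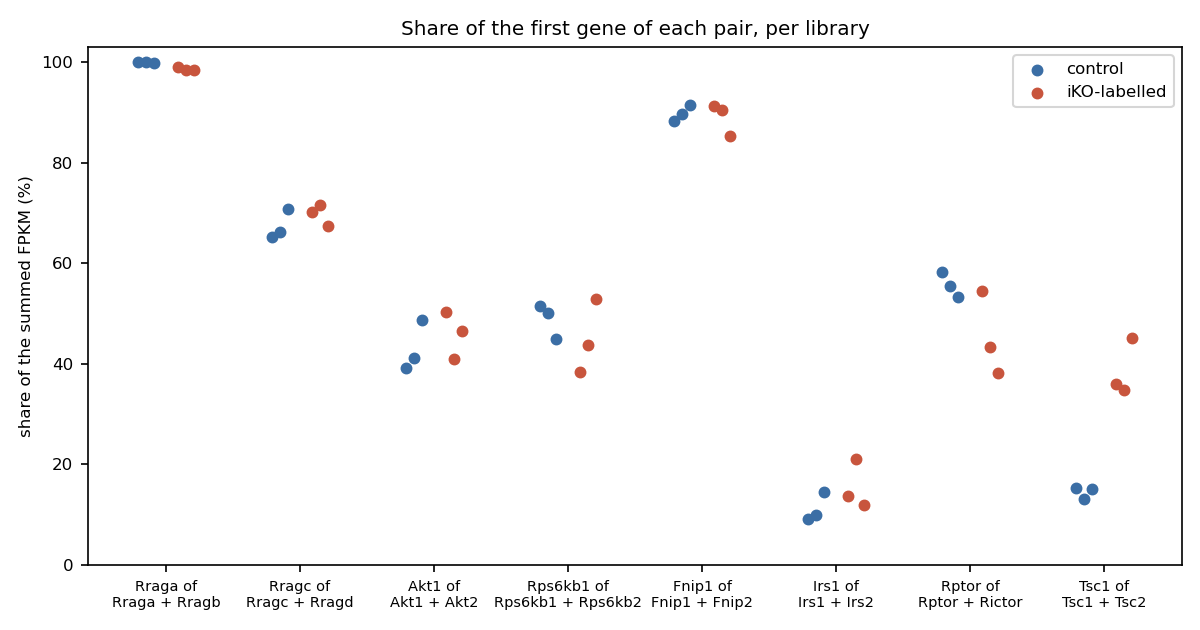
Share of the first gene in the summed FPKM of 8 gene pairs (y axis, percent), each point a control (blue) or iKO-labelled (red) library. Tsc1 went from 13.1% to 15.4% of the Tsc1 and Tsc2 sum in the controls to 34.9% to 45.2% in the iKO-labelled libraries. This share had to separate, as both genes had separated in opposite directions. Of the other pairs only Rraga with Rragb had groups that did not overlap. That follows from Rragb having passed the low-count filter through the iKO-labelled libraries only.

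Of 43 further genes of the pathway, listed by their roles, 7 rose and 3 fell (8.15% and 12.3% among all tested genes), with a median log2 fold change of 0.10. This list was chosen with earlier results of these data known. Its counts, here and by role below, are therefore a description and no support. Both Redd genes, whose proteins inhibit mTORC1 through the TSC complex, rose. Ddit4l, with the largest rise among the 43, stood at 46.3, 49.1 and 41.3 CPM in the controls and at 144.5, 137 and 152 CPM in those labelled iKO (1.67 ± 0.11, adjusted p = 1.1e-04), and Ddit4 rose from 52.7 ± 2.48 to 112 ± 11.4 CPM (1.09 ± 0.11, adjusted p = 5.7e-04). Rhebl1, a relative of Rheb, was not past the test (-0.097 ± 0.31, adjusted p = 0.869).

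KICSTOR holds GATOR1 on the lysosome. Of 9 genes for it and for amino acid sensors, 4 rose and 0 fell (8.15% and 12.3% among all tested genes). Among them Itfg2, a KICSTOR subunit, rose by 0.53 ± 0.15 (adjusted p = 0.0425), a call lost without iKO 1, iKO 3 or any of the controls (at most adjusted p = 0.132). The leucine sensor Sesn2 rose from 285 ± 31.5 to 476 ± 36.9 CPM (0.74 ± 0.10, adjusted p = 0.00208). Its relative Sesn1 rose by 0.51 ± 0.13 (adjusted p = 0.0263), a call lost without iKO 2, iKO 3, control 1 or control 3 (at most adjusted p = 0.1).

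Among 14 genes of PI3K, its receptors and its antagonists, 1 fell and 0 rose by edgeR (5 with an unadjusted p under 0.05). The one that fell was Grb10, an adaptor that damps insulin receptor signalling and is itself stabilised by mTORC1, from 315 ± 5.76 to 203 ± 10.2 CPM (-0.63 ± 0.071, adjusted p = 8.6e-04). Of 11 substrates and outputs, 2 fell and 0 rose (12.3% and 8.15% among all tested genes), and 4 had an unadjusted p under 0.05. Eif4ebp1, which encodes the translational repressor 4E-BP1, fell from 402 ± 12.3 to 258 ± 11.9 CPM (-0.64 ± 0.069, adjusted p = 7.3e-04). Eif4e, the cap-binding factor that 4E-BP1 holds back, fell from 572 ± 20.3 to 412 ± 26.7 CPM (-0.47 ± 0.072, adjusted p = 0.0033). Of 6 genes for mTORC2 partners and the TTT chaperone that assembles mTOR complexes, 1 rose: Tti2, by 0.59 ± 0.14 (adjusted p = 0.0228), a call lost without iKO 1, iKO 2, control 1 or control 3 (at most adjusted p = 0.0825).

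**Figure D5:**
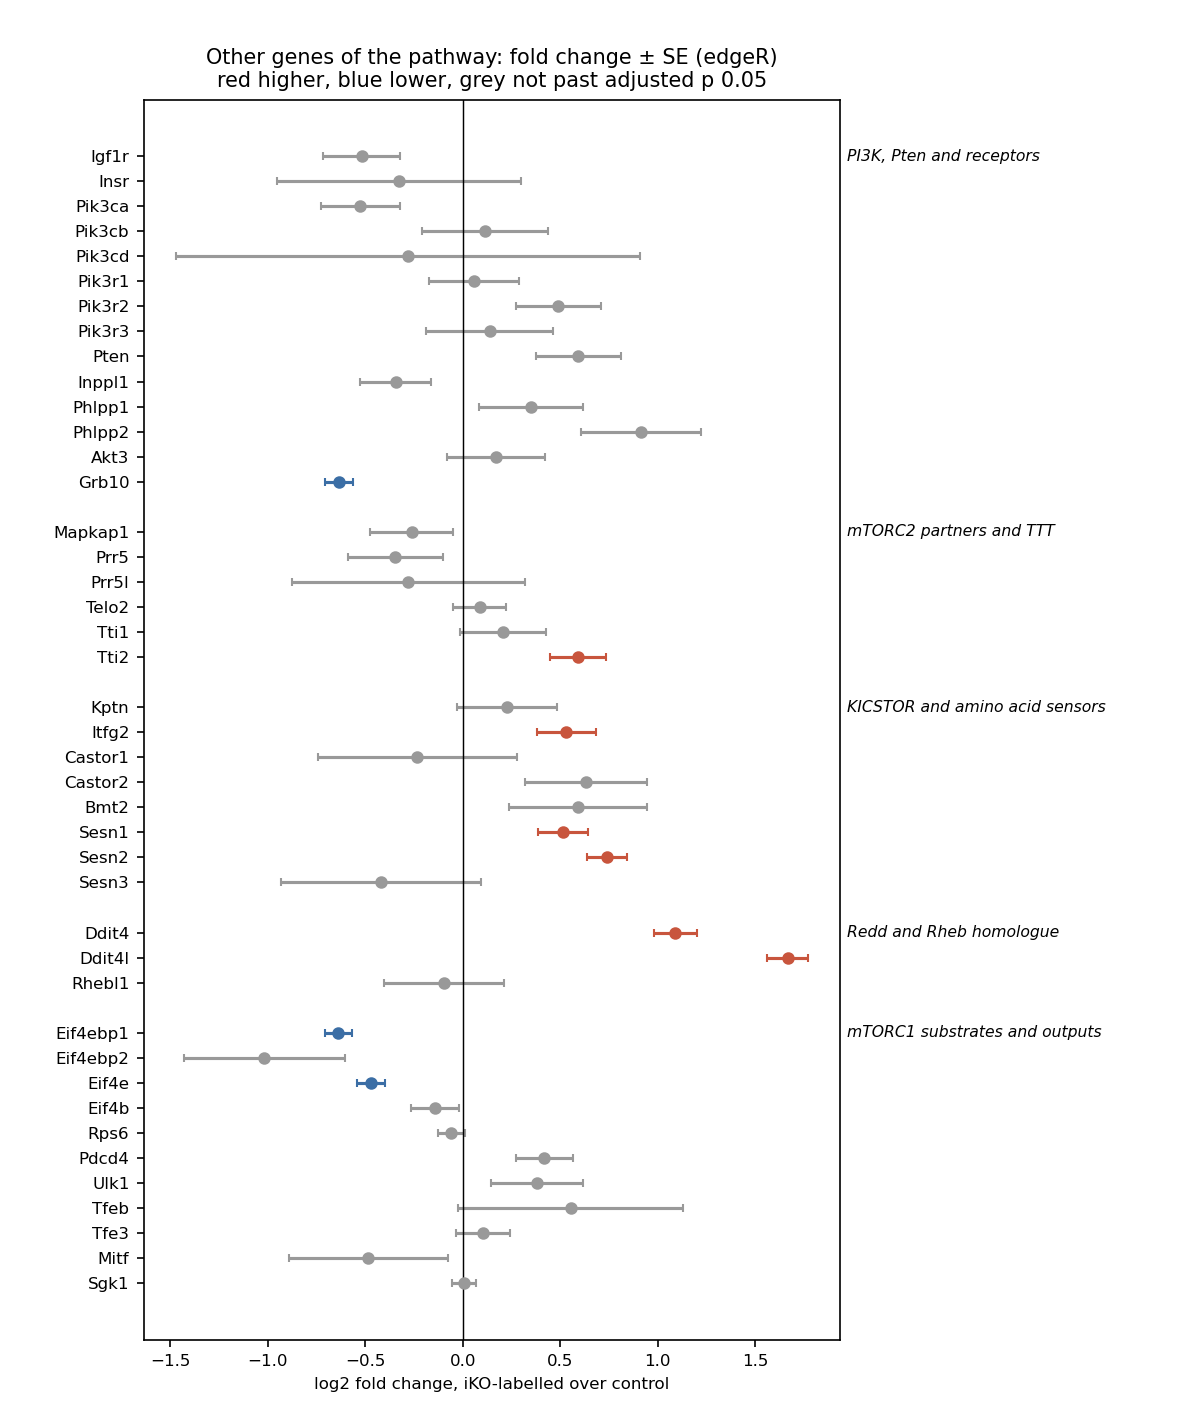
Log2 fold change of further pathway genes, iKO-labelled over control (x axis), with SE bars from edgeR, grouped by role (n = 3 libraries per group; red called higher, blue lower, grey not called). Ddit4l and Ddit4 lie farthest to the right among the called genes plotted, and Grb10, Eif4ebp1 and Eif4e to the left.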

How the data were processed

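Libraries of sorted satellite cells followed Smart-Seq2, per the labels' protocols. Per the submitters' processing notes, STAR, featureCounts (Subread), Trim Galore and DESeq2 were used with the build mm10. Their roles and versions, the annotation, strand setting and handling of multi-mapping reads are not stated there. The authors deposited raw counts per gene and, in a second table, FPKM. Median-of-ratios size factors account for the scaling of the deposited FPKM (count to FPKM ratios matched them to within 9.33e-15 over 11939 genes with at least 20 counts in each library), so FPKM levels are relative to these. Of 46078 rows, 551 had no gene name (0.108% to 0.123% of counts) and were left out.

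Counts were fitted in R 4.3.3 with edgeR 4.0.16: filterByExpr (minimum count 10, minimum total 15), TMM factors and a quasi-likelihood model of the group, over 3 libraries per group. The SE is the log2 fold change divided by the square root of F. Adjusted p under 0.05 was called. Alternatives used DESeq2 1.42.0, limma 3.58.1, other scalings and filters, log2(FPKM + 1) and log2(FPKM + 0.1), fits with GC and exon length trends removed, the replicate number as a block, and each library left out. Named genes were the 38 members, Paxbp1 and the called genes of the pathway list (a limit of the 12 with the smallest p was not reached). A called pathway gene stays in the counts but is not reported here by name. Positions are from GENCODE M21, and promoter windows from RefSeq (GRCm38.p6). The members, lists and tests were chosen with earlier results of these data known. Python 3.11.15 was used with pandas 2.3.3, numpy 2.4.6 and scipy 1.17.1, and figures were drawn with matplotlib 3.10.9.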

Additional observations from a re-analysis of the deposited data

How the results depend on the processing

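Under 18 alternatives, 158 of 177 values of the 10 called members kept their call, 19 lost it and 0 changed sign, and Tsc1, Tsc2, Rheb, Flcn, Nprl2 and Akt2 were called in every one. The 10 were chosen by the main test on these same counts, so this tally is no further support for them. Rragb, which had to differ, gave 15 of the values, with 10 calls kept and 5 lost. It also enters the counts called higher wherever it was called. The count of members called lower was 3 throughout. The count called higher was 11 with library totals, 4 on log2(FPKM + 1) without a filter, and 4 to 6 with each library left out in turn (4 without iKO 3). Over all genes, 1921 of 16252 were called higher with library totals, against 1324 of 16252 in the main fit. On log2(FPKM + 1) without a filter 912 of 33017 were, and without iKO 3 732 of 16950. Over all genes, 2053 to 2816 were called with a library left out (2053 without iKO 2, 2103 without iKO 3), against 3315. Pathway genes called higher numbered 4 to 6 and those called lower 3 to 4 in these fits (4 higher without control 3), and those called lower 5 without a count filter. DESeq2 called 10 members higher, and 2076 of 19164 genes over the whole table, so it called more genes in general. On log2(FPKM + 1) without a filter the calls of Deptor, Fnip1, Irs1 (0.64, adjusted p = 0.117) and Itfg2 were lost; the cause was not tested. Rragb had no value at a mean FPKM of at least 1 or 5 CPM in 3 libraries.

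The signs of uncalled members turned 20 times. Rptor was at 0.023 with library totals and 0.056 without iKO 3, and ran down to -0.21 with other libraries left out. Mlst8 was at -0.055 and Seh1l at -0.0074 without iKO 1, and they reached 0.18 and 0.11 in the other such fits. Tbc1d7 was at 0.040 with upper-quartile factors, 0.094 with library totals, 0.032 with the stricter filter, 0.010 with GC and length trends removed, and 0.0013 and 0.22 without control 3 and iKO 2 (-0.21 without iKO 1). Rragc was at 0.021, 0.078 and 0.014 under the same scalings and the stricter filter, and 0.059 and 0.063 without control 2 and iKO 2 (-0.17 without iKO 1). Rraga was at -0.057 and -0.038 without control 1 and iKO 3, and Rps6kb2 at -0.065, -0.063 and -0.051 without control 1, iKO 1 and iKO 2 (0.17 without iKO 3).

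With the replicate number as a block, 4 members were called higher, 3 lower, and 2215 genes in all; Deptor, Rragb and Fnip1 and, of the pathway genes, Sesn1 and Itfg2 were not called. Libraries of the same number did not deviate together (correlations of their deviations from the group means -0.067, -0.0021 and -0.059), so the numbers gave no sign of which libraries form the pairs that the design mentions. Depth limits Rragb and Slc38a9, which had at most 200 counts in any library.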
